A study of Saccharomyces cerevisiae with 24 samples.

Results

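Ribosome footprints, the stretches of mRNA that a translating ribosome protects from nuclease, were examined over the yeast genes named UTP, NOP, RRP or NOC followed by a digit. These names were given to genes whose products build ribosomes. The names alone chose the genes, and no measured value entered the choice. The rule found 56 genes among the 5564 lines of the table of footprint levels, namely 18 UTP, 17 NOP, 18 RRP and 3 NOC genes. All 56 genes that carry such a name in the RefSeq annotation had a line of their own, and none was counted jointly with another gene.

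Ribosome assembly starts in the nucleolus, where RNA polymerase I transcribes a long precursor that holds the ribosomal RNAs of both subunits. The small-subunit processome assembles on this precursor around the U3 small nucleolar ribonucleoprotein (snoRNP) and holds the subcomplexes UTP-A, UTP-B and UTP-C. The box C/D snoRNPs methylate the RNA and the box H/ACA snoRNPs convert uridine to pseudouridine. Another set of factors folds and trims the precursor of the large subunit, and the exosome, a complex of ribonucleases and ring proteins, removes spacers from the 3′ side. The exosome also degrades many other RNAs, so that its subunits are not dedicated to ribosomes. In growing yeast these genes are known to be expressed together with the ribosomal protein genes and to be turned down in many stresses.

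By the known role of their products the genes fall into 6 of UTP-A (UTP4, UTP5, UTP8, UTP9, UTP10 and UTP15), 4 of UTP-B (UTP6, UTP13, UTP18 and UTP21), 3 of UTP-C (UTP22, RRP7 and RRP36), 16 other small-subunit factors, 4 snoRNP core proteins, 16 large-subunit factors and 7 exosome subunits. The core proteins are NOP1, NOP56 and NOP58 of box C/D and NOP10 of box H/ACA.

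The 23 libraries used here were made from Saccharomyces cerevisiae strain BY4741, with cycloheximide, an inhibitor of elongation, in the lysis buffer. The 8 unstressed libraries came from cells grown in YPD at 30°C. The 8 libraries of oxidative stress came from cells given 0.2 mM hydrogen peroxide for 30 min. In both series the medium held no cycloheximide before harvest, or x1/64, x1/16, x1/4, x1, x8 or x100 of it, where x1 is 100 μg/ml. There was 1 library per dose and stress, except for x100 with 2, which the methods describe as repeated independently. For x100 the cells were filtered and resuspended before the drug was added, so that dose and handling cannot be told apart there. The 2 heat shock libraries, without drug and at x1, came from cells kept at 42°C for 20 min. Before this the cells were filtered and moved to preheated YPD. No such transfer is described for the unstressed and peroxide cells without drug and at x1. Temperature and transfer thus cannot be told apart in comparisons with heat shock. Complete SD medium, SD without amino acids and SD with only histidine, methionine and leucine had 1 library each. The starved cells were filtered and then spent 20 min in yeast nitrogen base with glucose, with or without the 3 amino acids. BY4741 is an auxotroph for all 3. This change of medium also took away the other supplements of complete SD. The methods state that uracil was added in some cases, but not to which library. Amino acids, other supplements and the transfer thus cannot be told apart in comparisons with complete SD. Unstressed cells lysed with edeine or with aurintricarboxylic acid, inhibitors of initiation that were added to the lysate, had 1 library each. A sample of small ribosomal subunits was not analysed here.

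The levels are the authors' RPKM values, read counts divided by the size of the library and by the length of the frame. By the values themselves, this length was taken less 98 to 100 nt, which raises the RPKM of short frames most. An RPKM value is a share of its library, so a gene can fall because others rose, and without libraries of total mRNA the amount of message and its load of ribosomes cannot be told apart. The depth recovered from the RPKM values was between 1.92 M and 27.8 M reads per library (M stands for mega), with a median of 6.93 M. The libraries were made with 2 primer sets. Heat shock had only set 2, and the unstressed libraries without drug and at x1 had only set 1. LEU2, MET17 and URA3, which BY4741 lacks, were listed at 0 in all 23 libraries, and HIS3 was between 17.5 and 507 RPKM. The mating pheromone genes MFA1 and MFA2, with very short reading frames, were listed at 0 in all 23 libraries too, so they do not check the mating type. The 10 genes of a peroxide response list rose under peroxide by a median log2 difference of 4.43, and the 9 heat shock genes counted rose under heat shock by 7.35, so the stress labels were borne out.

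In unstressed cells without drug the 56 genes had a median of 63.7 RPKM, 3.58 times the median gene of that library. UTP-A had a median of 61.1 RPKM, UTP-B of 50.3, UTP-C of 52.8, the exosome of 52.3, the other small-subunit factors of 57.9 and the large-subunit factors of 93.6. The snoRNP core stood far above these, at 530 RPKM, with its 4 genes between 407 and 744 RPKM. NOP1, the methyltransferase of box C/D known as fibrillarin in animals, was at 744 RPKM. NOP8, a large-subunit factor, was the lowest gene of that library, at 24 RPKM. The other 6 roles thus had medians between 50.3 and 93.6 RPKM.

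Over the 8 unstressed libraries the median of the 56 genes stayed between 48.9 RPKM (x8) and 75.5 RPKM (a x100 library). It was between 7.5 and 37.8 RPKM in the 8 peroxide libraries. It was 6.9 RPKM under heat shock without drug and 2.2 RPKM with x1. In SD medium it was 52.5 RPKM with all amino acids, 9.7 RPKM with none and 12.6 RPKM with histidine, methionine and leucine. The medians of the unstressed and of the peroxide libraries did not overlap. Each of the 56 genes had its lowest value of all 23 libraries in heat shock with x1, against 45.5% of all lines that passed the filter on low values. The reads behind a gene were few there, with a median of 8 and a range from 1 to 77, against a median of 2392 in unstressed cells without drug. The highest value was in a x100 unstressed library for 36 of the 56 genes and in the unstressed library at x1/64 for 14. The share of all lines with this trait was not determined.

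**Figure D1:**
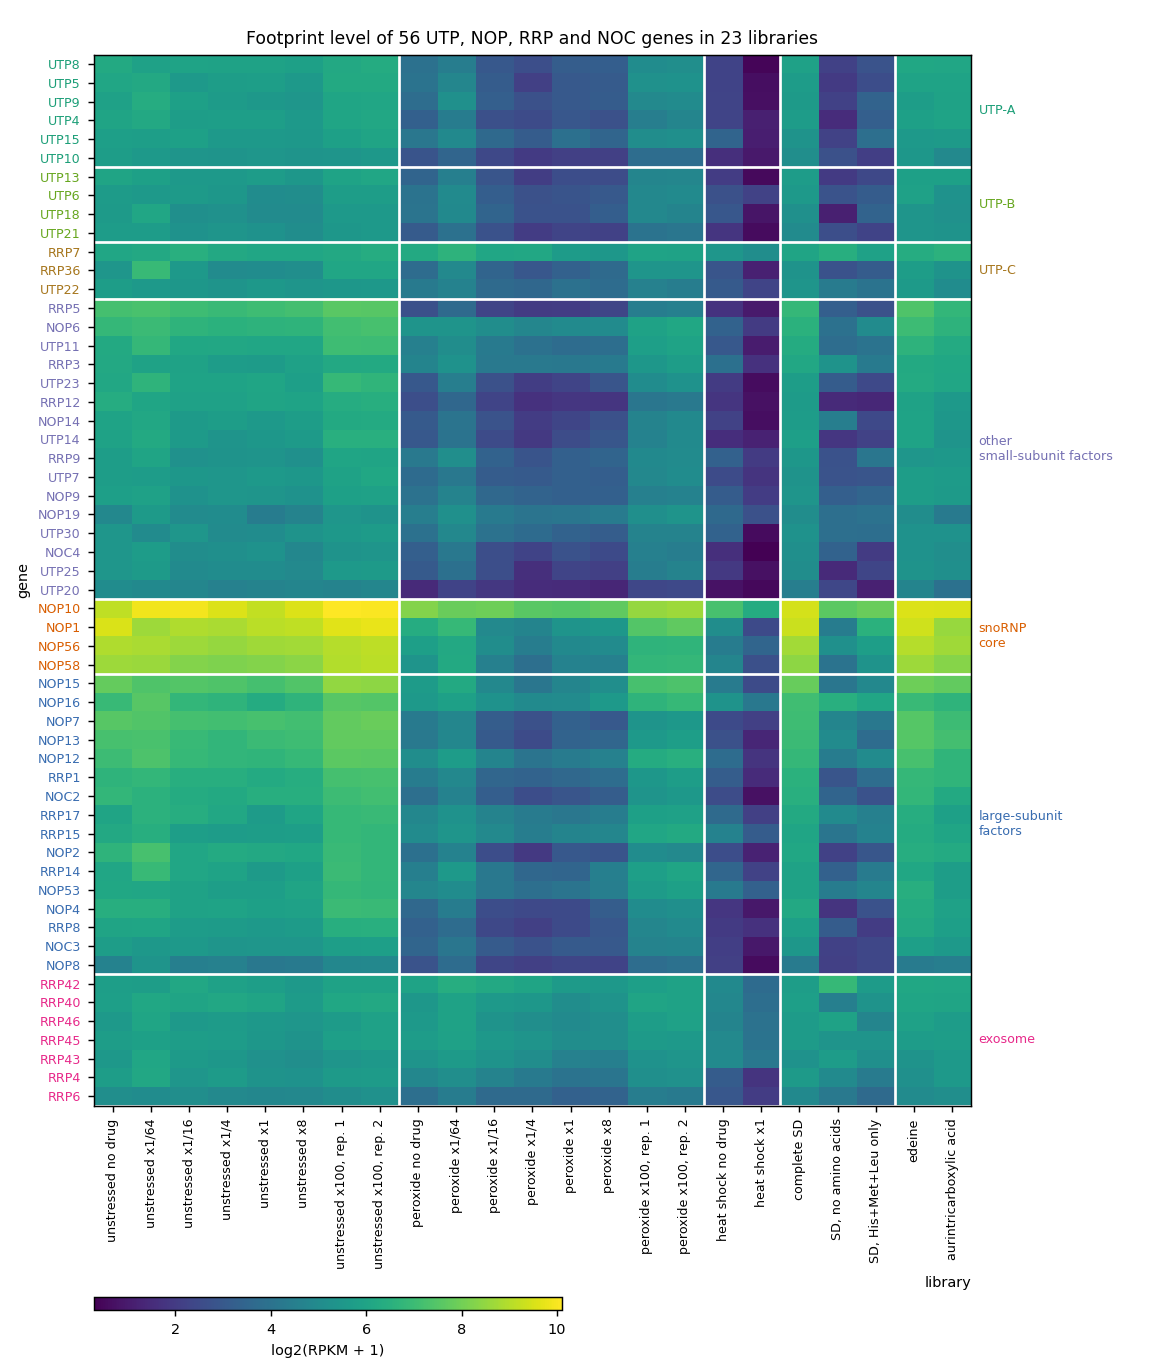
Footprint level of each of the 56 genes (rows, grouped by role) in each of the 23 libraries (columns), as colour on the log2(RPKM + 1) scale. White lines part the unstressed, peroxide, heat shock, SD and lysate libraries, and the dark column of heat shock at x1 holds the lowest value of all 56 genes.

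Under oxidative stress 54 of the 56 genes fell and none rose, by limma on log2(RPKM + 1) with the dose as a block over 16 libraries. Of all 4352 lines tested, 22.8% fell and 63% rose. The median log2 difference of the 56 genes was -1.90, against 0.53 over all lines, all differences being peroxide minus unstressed. With libraries centred on their median gene the split over all lines became 41.1% lower and 41.5% higher, and all 56 genes were called lower, with a median of -2.43. In 41 of the 56 genes all 8 peroxide values lay below all 8 unstressed values, as in 12.5% of all lines. RRP7 and RRP42 were the genes not called before centring.

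RRP5, a large RNA-binding protein needed for the rRNA cuts of both subunits, fell most. Its unstressed values ran from 121 to 189 RPKM, with a median of 143. Its peroxide values ran from 3.0 to 22.4 RPKM, with a median of 4.73. The ranges were far apart, and the log2 difference was -4.21 ± 0.23 (SE; adjusted p = 3.44e-09), an 18.5-fold fall on this scale. RRP12, an export factor of both subunits, went from 58.7 to 86.6 RPKM in unstressed cells (median 64.8) to between 2.25 and 18.3 RPKM under peroxide (median 4.59), a log2 difference of -3.35 ± 0.25 (adjusted p = 5.05e-08). UTP20, the longest of the 56 genes with a frame of 7482 nt, is a scaffold of the small-subunit precursor. Its level was 23.2 to 31.9 RPKM without stress (median 26.0) and 1.54 to 4.49 RPKM with peroxide (median 2.29). Its log2 difference of -2.93 ± 0.14 had the smallest adjusted p of the 56 genes (1.09e-09). UTP23, another component of the processome, was at 55.7 to 114 RPKM (median 68.2) and at 3.15 to 38.2 RPKM (median 6.64) in the same order, a log2 difference of -2.82 ± 0.25 (adjusted p = 3.23e-07). For none of these 4 genes did a peroxide value reach the lowest unstressed value.

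All 16 small-subunit factors outside the 3 subcomplexes fell, with log2 differences from -4.21 to -0.42 and a median of -1.92. The smallest fall was that of NOP19 (-0.42 ± 0.10, adjusted p = 0.0018). UTP-A, the subcomplex that binds the precursor first, fell in 6 of 6 genes with a median of -2.16 and a narrow range from -2.66 (UTP10) to -1.56 (UTP15). UTP8, its gene with the highest mean RPKM, was at 57.0 to 79.4 RPKM in unstressed cells (median 61.2) and at 5.2 to 34.1 RPKM under peroxide (median 11.4), a difference of -2.23 ± 0.23 (adjusted p = 1.36e-06). UTP-B, a scaffold that binds the precursor and U3, fell in 4 of 4 genes with a median of -2.0. UTP13, its gene with the highest mean, went from 43.1 to 66.7 RPKM (median 53.7) to 3.17 to 26.6 RPKM (median 8.10), a difference of -2.33 ± 0.25 (adjusted p = 1.73e-06).

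UTP-C was uneven. UTP22 (-1.39 ± 0.12, adjusted p = 1.81e-07) and RRP36 (-1.55 ± 0.17, adjusted p = 1.83e-06) fell, whereas RRP7 was not called at -0.19 ± 0.11 (adjusted p = 0.116). RRP7 had the highest mean RPKM of the subcomplex. It was at 66.8 to 89.0 RPKM in unstressed cells (median 72.8) and at 44.0 to 97.3 RPKM under peroxide (median 64.6). Of the 8 peroxide values, 4 (at x1, x8 and x100) lay below all unstressed values and 1 (at x1/64) above them. The peroxide libraries of these doses had primer set 2.

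The snoRNP core fell in 4 of 4 genes, with the lowest median of the 7 roles at -3.15. NOP1 was at 407 to 870 RPKM in unstressed cells (median 561) and at 25.4 to 209 RPKM under peroxide (median 62.6). Its difference was -3.10 ± 0.26 (adjusted p = 1.73e-07). NOP56 and NOP58 are the paired scaffold proteins of the box C/D particle. NOP56 went from 370 to 562 RPKM (median 446) to 21.0 to 105 RPKM (median 44.0), a difference of -3.20 ± 0.19 (adjusted p = 6.41e-09). NOP58 went from 297 to 545 RPKM (median 364) to 13.7 to 112 RPKM (median 32.3), a difference of -3.21 ± 0.23 (adjusted p = 3.71e-08). The 3 box C/D genes thus differed by less than 1 SE from each other. NOP10 of box H/ACA has the highest mean of the core, 576 to 1096 RPKM unstressed and 182 to 405 RPKM under peroxide, and fell by 1.69 ± 0.12 (adjusted p = 3.34e-08). Its frame of 177 nt is the shortest of the 56, so few positions stand behind its values. The 98 to 100 nt taken off the length raise its RPKM the most of the 56.

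All 16 large-subunit factors fell, with log2 differences from -3.38 to -0.96 and a median of -2.0. NOP7, a nucleolar scaffold of the large-subunit precursor, led them. It was at 137 to 231 RPKM in unstressed cells (median 161) and at 5.66 to 44.6 RPKM under peroxide (median 13.8), a difference of -3.38 ± 0.23 (adjusted p = 2.4e-08). NOP13, an RNA-binding protein of the nucleolus, went from 106 to 215 RPKM (median 142) to 4.84 to 54.8 RPKM (median 14.2), a difference of -3.08 ± 0.23 (adjusted p = 5.12e-08). NOP2, which methylates the RNA of the large subunit, went from 67.1 to 152 RPKM (median 88.8) to 2.81 to 32.1 RPKM (median 10.4), a difference of -2.94 ± 0.23 (adjusted p = 8.89e-08). In each of these 3 genes the peroxide values lay below all unstressed values. NOP15, the large-subunit factor with the highest mean, did overlap, with 145 to 364 RPKM unstressed and 16.7 to 164 RPKM under peroxide (-2.02 ± 0.22, adjusted p = 1.71e-06), where the overlap came from its peroxide values at x100. RRP15, another large-subunit factor, had the smallest fall, -0.96 ± 0.09 (adjusted p = 2.79e-07).

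The 7 exosome subunits had a median of -0.35 and 6 were called lower. RRP6, the nuclear exonuclease, and RRP4, a cap protein, fell by 1.13 ± 0.11 (adjusted p = 6.03e-07) and 0.92 ± 0.11 (adjusted p = 5.57e-06) on the log2 scale. RRP6 was at 27.2 to 37.4 RPKM in unstressed cells (median 32.9) and at 9.19 to 20.9 RPKM under peroxide (median 12.8). The cap protein RRP40 and the ring proteins RRP43, RRP45 and RRP46 had differences between -0.41 and -0.21. RRP42, also of the ring and the subunit with the highest mean, was at 47.2 to 71.7 RPKM (median 56.3) and at 45.2 to 83.1 RPKM (median 61.1), and was not called at 0.09 ± 0.09 (adjusted p = 0.376). The 15 genes whose ranges overlapped included RRP40, RRP42, RRP43, RRP45 and RRP46 of the exosome and RRP7, with 9 others from both subunits. The plot of 6 genes by dose shows the contrast between RRP5, NOP56, UTP20 and UTP8 on one side and RRP7 and RRP42 on the other.

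**Figure D2:**
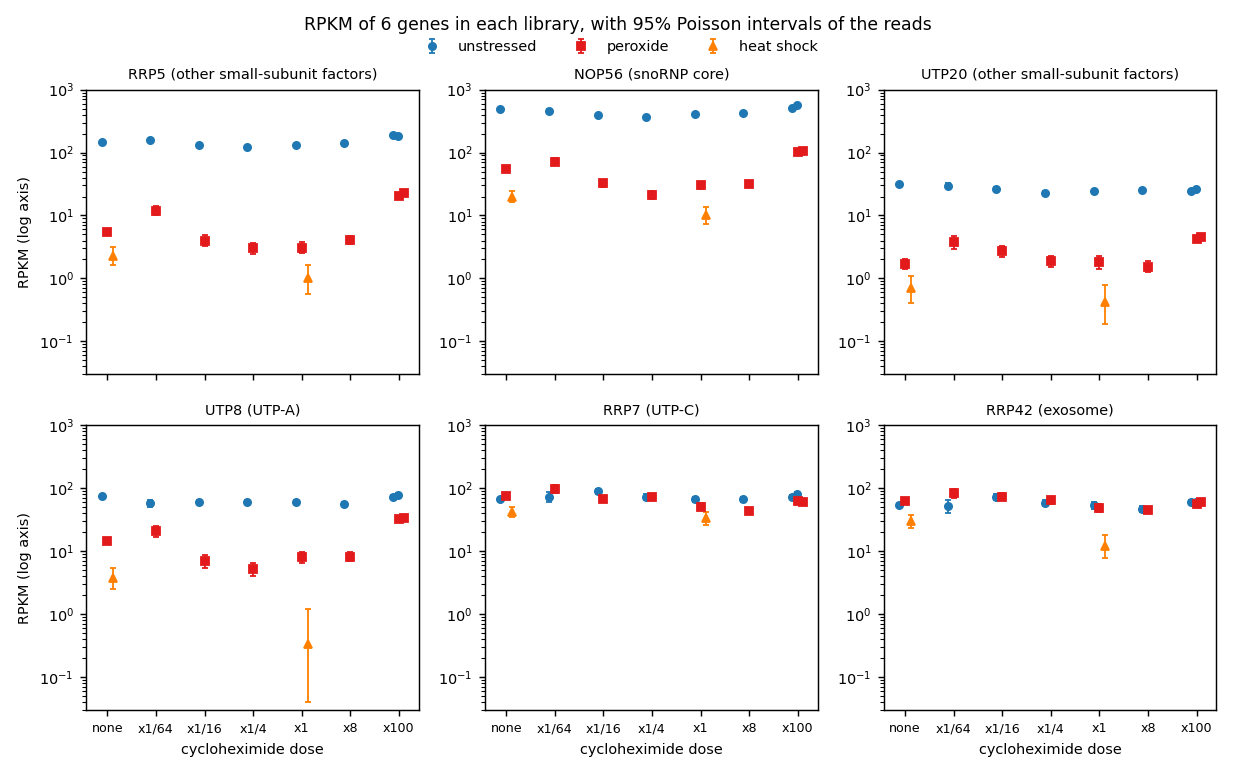
RPKM (log axis) of RRP5, NOP56, UTP20, UTP8, RRP7 and RRP42 at each cycloheximide dose, 1 point per library, with bars for 95% Poisson intervals of the recovered reads, which cover counting error only. The peroxide points of the first 4 genes lie below all unstressed points and rise at x100, whereas 3 of the 8 of RRP7 and 5 of the 8 of RRP42 lie within the range of the unstressed points, and the heat shock points are the lowest of each gene at their dose.

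The size of the fall under peroxide differed between doses. The median log2 difference of the 56 genes was -1.98 without drug and -1.52 at x1/64. The next 4 doses, from x1/16 up to x8, gave medians of -2.34, -2.67, -2.32 and -2.26. At x1 and x8 the peroxide library had primer set 2 and the unstressed library set 1. Stress and primer set thus cannot be told apart there. At x100 the median was -1.11. In the pair of libraries without drug, 47 genes were at least 2-fold lower and none higher, against 13.2% and 39.8% of 4194 lines. RRP5 had the largest difference of that pair, with 145 RPKM (143 to 147, 95% Poisson interval) without stress and 5.42 RPKM (4.82 to 6.08) with peroxide. The median of all tested lines was between 0.37 and 0.76 without drug and at these 6 doses, so the median of the 56 genes lay below it each time.

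At x100 alone, the only dose with replicates, 50 of the 56 genes fell and none rose by limma over 4 libraries, against 19.7% lower and 55.3% higher of 4101 lines. The replicates were close: the 56 genes differed between them by a median of 0.08 on the log2 scale in unstressed cells, with the largest difference of 0.24 for RRP46, and by 0.13 under peroxide, with the largest of 0.36 for UTP14. RRP5 was at 189 and 185 RPKM in the unstressed replicates and at 20.7 and 22.4 RPKM in the peroxide replicates, a difference of -3.06 ± 0.11 (adjusted p = 2.19e-05). NOP56 was at 510 and 562 RPKM and at 101 and 105 RPKM, a difference of -2.37 ± 0.11 (adjusted p = 4.13e-05). NOP7, UTP20, NOP58, RRP12, NOP1, NOP13, NOP2 and NOP4 followed, with differences from -2.35 to -1.83. The 6 genes not called were RRP40, RRP42, RRP43, RRP45 and RRP46 of the exosome and NOP19, with differences from -0.28 to 0.02. After centring on the median gene all 56 were called lower, against 34.6% lower and 31.6% higher of all lines.

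The rise of the peroxide values at x100 was compared by a contrast that was chosen after the data had been seen: the peroxide difference at x100 minus that at the 4 doses from x1/16 to x8. By limma over 16 libraries it was above 0 for 39 of the 56 genes and below 0 for none. Of all 4352 lines, 5.31% were above 0 and 0.046% below. The median was 1.25, against 0.11 over all lines. UTP-A and UTP-B were called in 6 of 6 and 4 of 4 genes with medians of 1.55 and 1.53, the other small-subunit factors in 13 of 16, the snoRNP core in 3 of 4, the large-subunit factors in 11 of 16, UTP-C in 2 of 3 and the exosome in 0 of 7. UTP23 was at 5.51, 3.15, 3.85 and 6.33 RPKM under peroxide from x1/16 to x8 and at 32.4 and 38.2 RPKM at x100, and its contrast was 1.88 ± 0.28 (adjusted p = 0.0014). UTP5 of UTP-A was at 7.79, 3.43, 7.09 and 7.53 RPKM and then at 37.1 and 38.2 RPKM (1.86 ± 0.32, adjusted p = 0.0035). Both genes were thus several times higher at x100 than at any of these 4 doses, but at x1/64 UTP23 was at 21.6 RPKM and UTP5 at 26.7 RPKM, closer to x100.

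Values at x100 were higher in both series. Within the peroxide libraries x100 was higher than x1/16 to x8 for 52 of the 56 genes (15% of all lines), with a median of 1.80, and lower for none (9.28%). Within the unstressed libraries it was higher for 26 (4.04%), with a median of 0.51, and lower for none (7.28%). In 53 of the 56 genes both x100 peroxide values lay above all 4 values at x1/16 to x8 (20.4% of all lines), with RRP7, RRP42 and RRP43 as the exceptions, and in 45 of the 56 both x100 unstressed values lay above the 4 unstressed values (15% of all lines). NOP15 rose most within the unstressed libraries, from 145 to 175 RPKM at x1/16 to x8 to 364 and 344 RPKM at x100 (1.10 ± 0.21, adjusted p = 0.0092). As the x100 cells were handled differently, whether the dose or the handling moved with these values cannot be told apart. The primer set moved with them too. All x100 libraries had set 2, whereas the unstressed libraries from x1/16 to x8 and the peroxide libraries at x1/16 and x1/4 had set 1. Within the unstressed series dose, handling and primer set thus cannot be told apart.

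**Figure D3:**
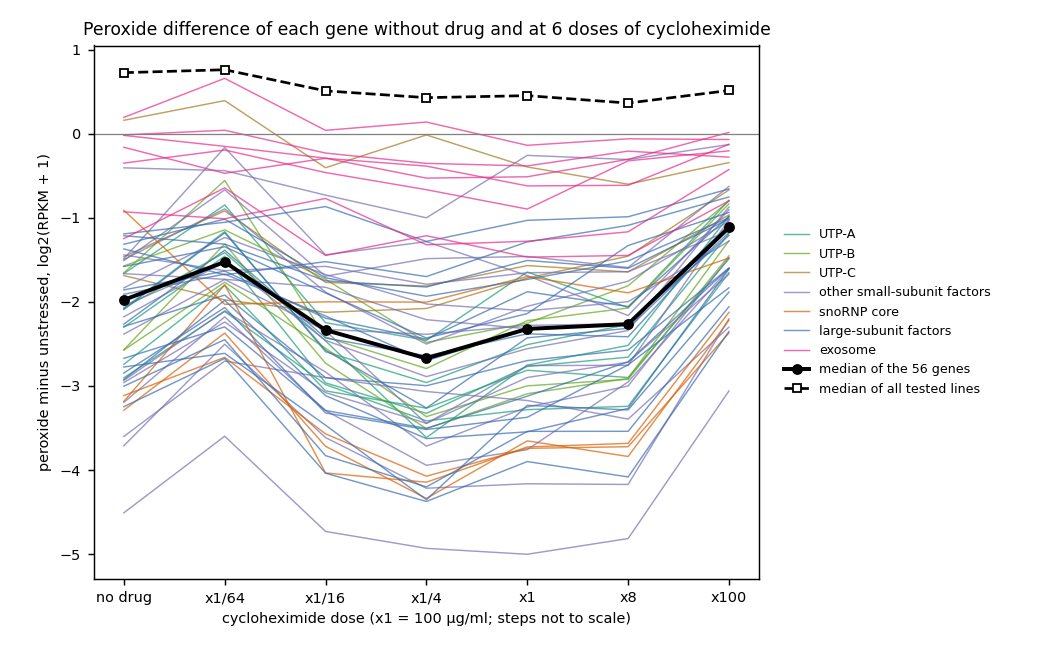
Peroxide minus unstressed difference on the log2(RPKM + 1) scale for each of the 56 genes (thin lines, coloured by role) at no drug and 6 doses of cycloheximide, with the mean of 2 libraries at x100. The median of the 56 genes (thick line) runs from -2.67 at x1/4 to -1.11 at x100 and stays below the median of all tested lines (dashed), and the lines nearest to 0 include 5 exosome genes, RRP7 and NOP19.

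Single libraries at x1 and without drug were compared at 2-fold as well. In unstressed cells none of the 56 genes was 2-fold higher or lower at x1 (1.28% and 0.482% of 3737 lines). Their median was -0.35, against 0.01 over all lines, and 54 of the 56 were below 0. Under peroxide 4 of the 39 genes that passed the filter were at least 2-fold lower at x1 and none higher (2.04% and 1.01% of 4262 lines). Their median was -0.73, against -0.22 over all lines, and all 39 were below 0. The unstressed pair shares primer set 1, but under peroxide the library without drug had set 1 and that at x1 set 2, so that drug and primer set cannot be told apart there.

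A linear trend with the logarithm of the dose, fitted by limma over the 14 libraries of drug-treated cells with terms for the stress and the primer set, called none of the 56 genes in either direction, with 1 gene at an unadjusted p under 0.05. Of all 4371 lines, 4.3% rose and 19.5% fell. The median slope of the 56 genes was 0.09 on the log2 scale per 10-fold dose, against -0.04 over all lines. Without x100 the slopes had a median of -0.23. The trend then fell for 11 genes and rose for none, near the shares of all 4437 lines (17.4% and 0.676%). UTP9 and UTP18 had the steepest slopes, both -0.42, but were not called. Among the 11 genes called were RRP4, RRP42, RRP43, RRP45 and RRP46 of the exosome. RRP43 had the smallest adjusted p of these (-0.39 ± 0.06 per 10-fold dose, adjusted p = 0.0082). For the difference of the trend between the stresses, limma called none of the 56 genes and none of all 4371 lines, with none of the 56 at an unadjusted p under 0.05 (5.24% of all lines) and a median of 0.19. Without x100 the median turned to -0.56, and 38 of the 56 had an unadjusted p under 0.05 (14.8% of all 4437 lines), with none of them and no line called after adjustment.

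All 56 genes fell under heat shock, by limma over 18 libraries with the dose as a block, where the contrast rests on 1 library without drug and 1 at x1. Of all 4317 lines, 43.2% fell and 26.7% rose. The median log2 difference from unstressed cells was -3.87, against -0.28 over all lines. In all 56 genes both heat shock values lay below all 8 unstressed values, as in 38.1% of all lines. With the primer set as a term 54 genes were called lower, against 1429 of all 4317 lines. The spread in this fit comes mainly from the unstressed and peroxide libraries. With 1 heat shock library left out, the contrast rests on the other alone. The median was then -4.15 with the x1 library kept and -3.32 with the drug-free library kept.

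RRP5 again fell most. It was at 2.30 RPKM under heat shock without drug, with a 95% Poisson interval from 1.65 to 3.12, and at 1.00 RPKM with x1 (0.56 to 1.66). The corresponding unstressed values were 145 and 130 RPKM, and the difference was -5.48 ± 0.40 (adjusted p = 4.48e-08). NOP1 was at 33.2 and 4.62 RPKM against 744 and 544 RPKM in unstressed cells, a difference of -5.35 ± 0.52 (adjusted p = 6.53e-07). NOP13 (-4.98), NOP7 (-4.97), NOP56 (-4.77), NOC2 (-4.69), RRP12 (-4.63), NOP58 (-4.63), UTP8 (-4.61) and NOP4 (-4.57) followed, all with adjusted p-values between 2.9e-08 and 5.9e-07. NOC2 works with NOC3 in moving the large-subunit precursor out of the nucleolus. These 10 genes came from both subunits and from the snoRNP core.

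The medians of the roles under heat shock were -4.70 for the snoRNP core, -4.08 for UTP-A, -4.01 for the other small-subunit factors, -3.90 for the large-subunit factors, -3.67 for UTP-B, -2.88 for UTP-C and -1.42 for the exosome. RRP43, RRP7, RRP45, RRP46, RRP42 and RRP40 had the smallest differences, but here all were called. RRP43 was at 30.5 RPKM without drug and 17.6 RPKM at x1, against 44.4 and 36.6 RPKM in unstressed cells (-0.75 ± 0.15, adjusted p = 0.000623). RRP7 was at 42.4 and 33 RPKM against 67.6 and 66.8 RPKM (-0.87 ± 0.20, adjusted p = 0.00126). RRP42, not called under peroxide, was at 29.8 and 12.2 RPKM against 54.6 and 53.7 RPKM (-1.42 ± 0.22, adjusted p = 5.5e-05).

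Taken singly, the library without drug showed 51 of the 56 genes at least 2-fold lower than its unstressed counterpart (23.7% of all lines) and none higher (19.9%), with a median of -3.32. At x1, 54 of the 55 genes that passed the filter of 10 RPKM were at least 2-fold lower (35.7% of all lines) and none higher (15.9%), with a median of -4.44. The difference at x1 was below that without drug for 52 of the 56 genes, with a median of -0.94, against 86.5% of all lines, with a median of -0.54. RRP8, UTP6, UTP14 and UTP20 were the exceptions. Of the 14 genes whose mean over both heat shock libraries reached 10 RPKM, 7 were at least 2-fold lower with x1 and none higher (13% and 2.64% of 3489 lines). Among these 14, NOP1 had the largest difference between them, at 33.2 RPKM (27.1 to 40.3) without drug and 4.62 RPKM (2.39 to 8.08) with x1. This difference between 2 single libraries has no replicate check.

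Against peroxide, heat shock was lower for 56 of the 56 genes by limma (74.1% of all 4317 lines) with a median of -1.55, against -0.88 over all lines. After centring on the median gene, 24 genes were lower and 1 was higher, against 24.9% and 22.3% of all lines. In 37 of the 56 genes both heat shock values lay below all 8 peroxide values, a share near the 63% of all lines. With the primer set as a term 42 genes were called lower, against 2690 of all 4317 lines. NOP6, a small-subunit factor, had the largest difference, from 40.2 and 30.7 RPKM under peroxide without drug and at x1 to 9.37 and 2.95 RPKM under heat shock (-2.52 ± 0.23, adjusted p = 1.34e-06). UTP8, NOC4, UTP11, NOP1, UTP5, UTP9, NOP12, RRP4 and UTP13 followed, with differences from -2.38 to -2.01. RRP4 thus stood among the 10 with the largest difference between the stresses, while RRP43 had the smallest (-0.40 ± 0.15, adjusted p = 0.0279). Without the x1 heat shock library 32 of the 56 genes were called lower, against 52.2% of all lines, and with only the 4 libraries without drug and at x1, 22 of the 25 genes that passed the filter, against 62.7%.

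Most of the 56 genes were lower after withdrawal of amino acids. In SD without amino acids 47 of the 56 were at least 2-fold lower than in complete SD and 1 was at least 2-fold higher, against 13.7% lower and 48.9% higher of 4588 lines. The median log2 difference was -2.53, against 0.97 over all lines. These are single libraries with no replicate check. NOP1 went from 642 RPKM (625 to 659) to 20.03 RPKM (13.9 to 28.0), 32.03-fold lower. NOP4, an RNA-binding factor of the early large-subunit precursor, went from 73.5 RPKM (69.7 to 77.5) to 2.39 RPKM (1.09 to 4.54), and NOP58 from 348 RPKM (338 to 357) to 15.2 RPKM (10.98 to 20.6). Their intervals were far apart, although the starved library is the shallowest of the 23, with a median of 23.5 reads per gene of the 56. RRP42 was the gene that was higher, at 53.1 RPKM (47.8 to 58.9) in complete SD and at 115 RPKM (97.5 to 135) without amino acids, a 2.16-fold difference. After centring on the median gene none of the 56 was 2-fold higher.

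With histidine, methionine and leucine as the only amino acids, 49 of the 56 were at least 2-fold lower than in complete SD (11.7% of 4283 lines) and none was 2-fold higher (29.3% of all lines), with a median of -2.37, against 0.56 over all lines. RRP12 went from 49.8 RPKM (47.5 to 52.2) to 1.62 RPKM (1.12 to 2.28). RRP5 went from 113 RPKM (110 to 116) to 5.65 RPKM (4.82 to 6.59). RRP8, a methyltransferase of the large-subunit RNA, went from 55.1 RPKM (50.7 to 59.8) to 3.11 RPKM (1.87 to 4.85). All 16 of the other small-subunit factors, 15 of 16 large-subunit factors and all genes of UTP-A, UTP-B and the snoRNP core passed 2-fold, as did 2 of 7 exosome subunits.

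The 2 starved libraries were compared with each other as well. Of the 29 genes whose mean over both reached 10 RPKM, 5 were at least 2-fold higher with the 3 amino acids and 5 lower. The shares of 4498 lines were 7.11% and 20.9%. The median was -0.01, against -0.35 over all lines. After centring on the median gene 9 were higher and 1 lower (15.1% and 8.67% of all lines), with a median of 0.44. NOP1 was higher with them, at 93.2 RPKM (85.0 to 102) against 20.03 RPKM (13.9 to 28.0), as were RRP9 of the U3 snoRNP and NOP58. NOP14, a small-subunit factor, was lower, at 4.54 RPKM (3.46 to 5.84) against 21.7 RPKM (17.6 to 26.4), as were NOP13 and RRP42. The library with the 3 amino acids had primer set 2, and the other 2 SD libraries had set 1, so that primer set and medium cannot be told apart here.

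The libraries of complete SD, edeine and aurintricarboxylic acid were close to that of unstressed cells without drug. In complete SD against YPD none was 2-fold higher or lower (5.09% and 1.19% of 3774 lines). The median was -0.23, against 0.16 over all lines, with a range from -0.70 to 0.31 and 49 of the 56 below 0. With edeine none passed 2-fold (0.951% higher and 0.652% lower of 3680 lines). The differences ran from -0.54 to 0.41 about a median of 0.00, against 0.07 over all lines, with 29 of the 56 below 0. With aurintricarboxylic acid the median was -0.20, against 0.16 over all lines, and 46 of the 56 were below 0. There 1 gene was at least 2-fold lower, with none higher (1.79% and 1.58% of 3738 lines). That gene was UTP20, at 14.4 RPKM (13.4 to 15.5) against 31.9 RPKM (31.1 to 32.7), 2.21-fold lower. For the aurintricarboxylic acid library, monosomes and polysomes were pooled and nuclease was applied only after the gradient. Drug and preparation thus cannot be told apart there.

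**Figure D4:**
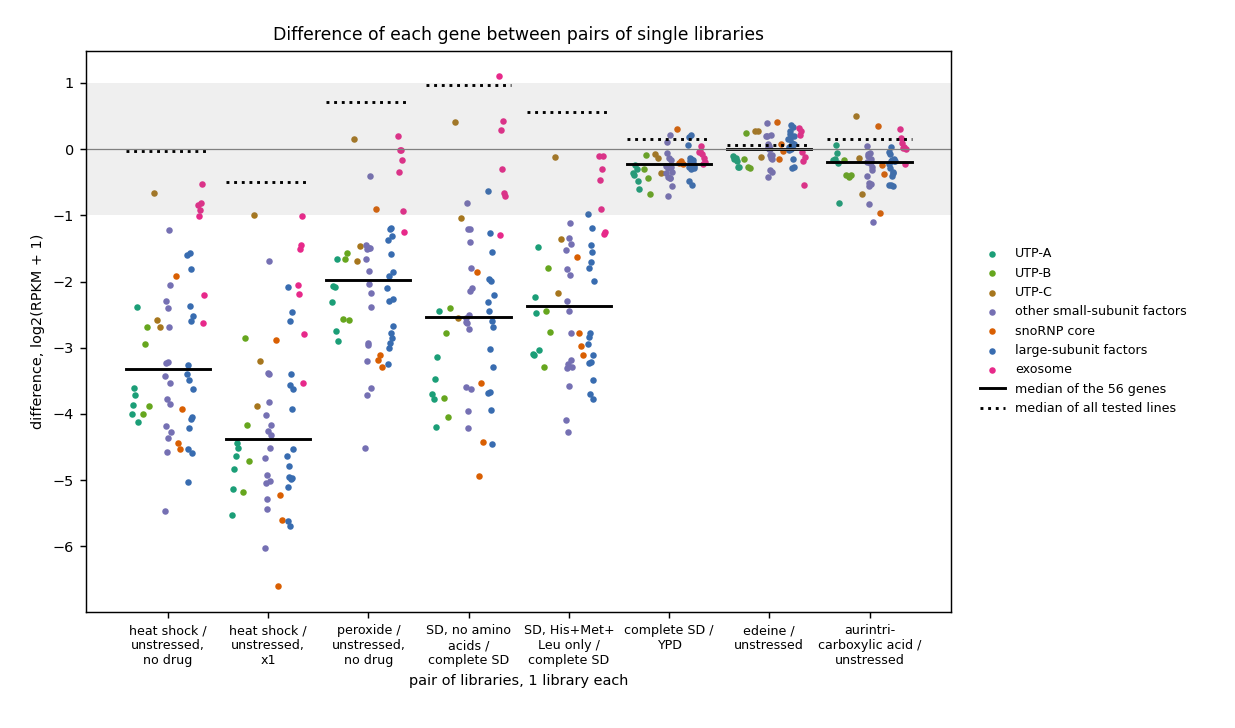
Difference on the log2(RPKM + 1) scale of each of the 56 genes (points, coloured by role) between pairs of single libraries, with the median of the 56 genes (solid bar) and of all tested lines (dotted bar). The grey band marks differences under 2-fold, which hold all points for complete SD and edeine and all but UTP20 for aurintricarboxylic acid, while most points for both stresses and for starvation lie below it.

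Genes of the same pathway with other names were described by counts in the same fits. Under peroxide 32 of 32 other small-subunit factors, 36 of 36 other large-subunit factors, 4 of 4 other snoRNP core genes and 7 of 7 other exosome genes fell by limma, with medians of -2.25, -2.44, -2.64 and -0.59. Of 8 RNA polymerase I genes 7 fell, with a median of -2.60, and so did 57 of 57 ribosomal protein genes that have a line of their own, with a median of -2.45. Among the 7 roles of the 56 genes the exosome, with a median of -0.35, was likewise nearest to 0. In the contrast of x100 with x1/16 to x8, 25 of 32 small-subunit, 30 of 36 large-subunit, 4 of 4 snoRNP, 5 of 8 RNA polymerase I and 1 of 7 exosome genes of these lists were called higher, against 10 of 57 ribosomal protein genes, whose median was 0.73.

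Among the 56 genes the fall went with the length of the reading frame, which was not used to choose them. Frames ran from 177 to 7482 nt. The log2 difference under peroxide had a Spearman correlation of -0.53 with length and of -0.38 with the mean log2 level in unstressed cells, and the difference under heat shock -0.48 and -0.41, across 56 genes that share the same libraries. The contrast of x100 with x1/16 to x8 had a Spearman correlation of 0.54 with length. The correlations with length were not computed over all lines or without the exosome subunits. The unstressed level is itself a part of both differences, which tends to build in a negative correlation with it. No relation to the level can therefore be read from these values. Without the exosome subunits the Spearman correlation with this level was -0.33 under peroxide and -0.37 under heat shock. All these correlations are descriptions across genes, which are not independent replicates.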

How the data were processed

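Footprints were mapped by the authors to the genome of strain S288C, with Bowtie 0.12.7 per the submitters' processing notes, and the alignments were processed with their own code. They deposited 1 table of RPKM values with a column for each of the 23 libraries, and how reads that align more than once were treated is not given in the sources used here. No column was left out. The tables of average occupancy along the reading frame were not used.

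The gene names were taken from the RefSeq annotation through the locus tags, of which 5446 of 5448 lines with 1 tag matched, and 116 lines join several tags. The members, their roles, the lists of other genes and the tests were chosen with earlier results of these data known.

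The RPKM values, multiplied by the length of the frame less 98 to 100 nt, are whole multiples of 1 read, and between 95.5 and 100% of low values came within 0.1 of a whole number. This gave the depth, the reads of each gene and 95% exact Poisson intervals, which cover counting error only and leave out the spread between cultures.

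Differences were tested by limma 3.58.1 in R 4.3.3 on log2(RPKM + 1). Each fit covered all lines with a mean of at least 10 RPKM in its libraries. All 56 genes passed this filter in each main fit. In the fit of heat shock against peroxide with only 4 libraries, 25 passed it. The tests were two-sided, with Benjamini-Hochberg adjustment over all lines and a threshold of 0.05. The scale understates the change of low genes. Single libraries were compared without a test, with a difference called at 2-fold. Full statistics were given for the 10 genes with the largest change in a tested comparison among those with the same sign at every dose or pair, the 3 with the largest in an untested one with intervals apart, and the gene with the highest mean of each role. The fits and the depths were tested on simulated data. Nothing states that libraries of different doses came from separate cultures, apart from the x100 repeats, so the p-values measure the spread between these libraries. The reads of the 56 genes differed between the x100 replicates beyond counting error (chi-square p = 1.63e-39 and 1.68e-27), so they were kept as 2 samples.

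The alternatives were a pseudocount of 0.1 or 10, leaving the filter out or raising it to 30 RPKM, centring on the median gene, the primer set as a term, a replicate block, and leaving out doses, replicates or libraries. Summaries were made with pandas 2.3.3, numpy 2.4.6 and scipy 1.17.1 under Python 3.11.15, and plots with matplotlib 3.10.9.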

Additional observations from a re-analysis of the deposited data

Results flagged for a closer look

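The peroxide difference at x100 differed from that at x1/16 to x8 by a test of this difference itself (limma, chosen after the data had been seen) for 39 of the 56 genes, all of them less reduced at x100. The 10 genes with the largest contrast on the log2 scale were UTP23 at 1.88, UTP5 at 1.86, RRP12 at 1.84, RRP5 at 1.81, UTP25 at 1.81, UTP13 at 1.79, NOC2 at 1.78, NOP1 at 1.77, NOP7 at 1.75 and UTP8 at 1.74. All 10 had adjusted p-values between 0.00029 and 0.0035. UTP25 was at 5.23, 2.03, 3.89 and 3.45 RPKM in the peroxide libraries from x1/16 to x8 and at 20.9 and 24.8 RPKM in those at x100. Restricted to x1/16, x1/4 and x100, where both stresses share a primer set at each dose, 41 genes were called higher (331 of 4385 lines). At x1/64 the peroxide difference, with a median of -1.52, was also smaller than at x1/16 to x8, where medians ran from -2.67 to -2.26, and this was not tested.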

How the results depend on the processing

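Of the counts of genes in the main comparisons, 258 values under the alternatives stayed within 1.5 times the main count and 14 did not. For heat shock against peroxide, with 56 lower, centring on the median gene gave 24 lower and 1 higher, the 4 libraries without drug and at x1 alone gave 22 lower of 25 tested (62.7% of all lines), and leaving out the x1 heat shock library gave 32 lower (52.2% of all lines), with NOP1 (-1.30) and UTP13 (-1.55) no longer called. For the trend with the dose none was called in the main fit. Centring gave 2 higher (534 of all 4371 lines) and the fit without the primer set term 2 higher (121 of 4371). The fit without x100 gave 11 lower (17.4% of all lines). Without x100 the median slope turned from 0.09 to -0.23 and the median difference of the trend between the stresses from 0.19 to -0.56, and with only primer set 1 the median slope was -0.09. For SD without amino acids, 0 genes were 2-fold higher with a pseudocount of 10 and 0 with centring, in place of 1. With a filter at 30 RPKM 25 of 33 tested were 2-fold lower (468 of 3117 lines). With that filter 24 of 31 tested were lower in SD with the 3 amino acids (349 of 2662 lines). For aurintricarboxylic acid the 1 gene lower became 0 with a pseudocount of 10 and 0 with the filter at 30 RPKM. With centring it became 2 (106 of 3738 lines). Among the pairs added later, 4 genes were lower under peroxide at x1 against no drug. They became 7 with a pseudocount of 0.1, 2 with centring, 0 with a pseudocount of 10 and 0 of 13 tested with the filter at 30 RPKM. Of all lines, 94, 39 and 35 of 4262 and 52 of 2719 were lower in the same order. Under heat shock at x1 the 7 of 14 genes lower became 3 with a pseudocount of 10 and 4 with centring. They became 0 of 2 with that filter and 37 of 56 with none. Of all lines, 212 and 184 of 3489, 243 of 1887 and 784 of 5564 were lower in the same order. Between the starved libraries the 5 higher and 5 lower became 1 and 2 with a pseudocount of 10 and 9 and 1 with centring. They became 1 and 2 of 10 with that filter and 9 and 8 of 56 with none. The counts over all lines were 250 and 564 of 4498, 677 and 390 of 4498, 274 and 652 of 3206, and 378 and 1102 of 5564. Counts under the stricter filter are of fewer genes tested, and for the others the cause was not tested.

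Leaving out 1 of the x100 libraries gave 53 to 54 genes lower under peroxide over all doses, 48 to 50 at x100 alone and 28 to 33 higher in the contrast of x100 with x1/16 to x8. The x100 libraries share replicate numbers 1 and 2 across the stresses, with a correlation of their deviations of 0.44, but 2 pairs do not show a pairing. With the replicate block 50 genes were lower at x100 (848 of 4101 lines) and 54 over all doses (987 of 4352). The trend called 0 (107 higher and 725 lower of 4371 lines), and the contrast called 36 higher (214 of 4352). Depth limits heat shock at x1 and SD without amino acids most, with medians of 8 and 23.5 reads per gene.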
